A study of Homo sapiens with 10 samples.

Results

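The genes described here are the ZNF zinc finger genes of chromosome 19 that were expressed in 3 lung cancer cell lines. They are the protein-coding rows of the count table whose symbol is ZNF followed only by digits, that lie on chromosome 19 in GENCODE 29, and whose mean level over the 10 libraries was at least 1 CPM (a gene's count divided by the library's total and scaled as is usual in RNA-seq). The rule gave 219 members, out of 239 such rows on the chromosome at any level and 57736 gene IDs in the table. Chromosome 19 held 52.6% of the 416 ZNF genes of that level in the genome. The mean level chose the members and is given as a description only. Just outside the threshold were ZNF540 at 0.707 CPM, ZNF784 at 0.890 CPM and ZNF878 at 0.940 CPM, and just inside it were ZNF132 at 1.11 CPM, ZNF233 at 1.13 CPM and ZNF763 at 1.26 CPM. All 219 members passed the filter on low counts and were tested. Of the 20 rows below the threshold, 6 passed it and 3 had no count in any library.

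RNA was sequenced from 3 human lung cancer lines, each with its own p53 mutation. The mutation is V157F in the line NCI-H2087. It is R158L in the line NCI-H441. It is R158P in the line NCI-H2110. In every line, cells given control siRNA were set against cells given p53 siRNA, a short RNA that lowers the level of its target messenger. There were 2 libraries for each siRNA in NCI-H2087 and in NCI-H441. NCI-H2110 had a single library for each siRNA, numbered replicate 2. The titles speak of knockouts while other labels name siRNA, and siRNA is the term used here. Each mutation is present in 1 line, so mutation and line cannot be told apart. No label says whether replicates were separate cultures, and p-values therefore measure only the spread between these libraries, which may be technical.

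ZNF genes encode proteins with rows of C2H2 zinc fingers, small loops held by a zinc ion that together read a stretch of DNA. Many of them begin with a KRAB domain, which binds TRIM28, and TRIM28 brings the histone methyltransferase SETDB1, heterochromatin proteins and deacetylases to the bound site. Members of the family are best known for silencing transposable elements and for keeping imprinted genes silent, and most arose by repeated duplication, so that close relatives lie side by side on chromosome 19. Because relatives are alike in sequence, the division of reads among them depends on the authors' counting, and single values of close relatives are uncertain for that reason.

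Library totals ran from 18336672 to 25810934 counts. Apart from the membership threshold and the CPM equivalents of 3 counts, CPM below are relative to TMM-scaled library sizes. Epithelial markers were above 1 CPM in every library, with 5 of 5 genes detected in each line and a summed level of 2367 to 8914 CPM. The 3 lung adenocarcinoma and alveolar markers summed to 196 to 398 CPM in NCI-H2087 and 250.3 to 442 CPM in NCI-H441, but to 28.0 to 56.6 CPM in NCI-H2110, where 1 of the 3 reached 1 CPM. Immune markers summed to at most 0.6 CPM in NCI-H2087 and NCI-H441 and to 7.04 to 7.5 CPM in NCI-H2110. There 1 of the 3 reached 1 CPM in each library, while CD3E had at most 3 counts in every library. The 4 fibroblast markers summed to 12.3 to 16.6 CPM in NCI-H2087, 19.4 to 32.5 in NCI-H441 and 38.8 to 49.2 in NCI-H2110. In each line 1 of these 4 reached 1 CPM in every library. Endothelial markers summed to at most 1.56 CPM. These are bulk libraries, in which fewer cells expressing a gene and less RNA per cell cannot be told apart.

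A KRAB core was found in the coding sequence of 190 members (86.8%), by at least 6 matches to its 10 positions. The members had a median of 12 zinc fingers, from 0 found in ZNF738, whose longest complete coding sequence encodes 137 residues, to 32 in ZNF91, a repressor of SVA retrotransposons. Where rows less than 500 kb apart were joined, the 239 rows formed 20 groups, and 9 groups of at least 5 members held 205 of the 219. The group from ZNF101 to ZNF254 had 37 rows, of which 29 were members and 28 of these had a KRAB core. It is called the ZNF101-to-ZNF254 cluster below, since its members stood apart in several results.

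Promoter sequences from RefSeq (GRCh38.p14, 250 bases before to 50 after the start, the first listed start of a gene) were available for 194 members, 26 of them in the ZNF101-to-ZNF254 cluster. They are shown because the promoters of that cluster share words that few other promoters hold. All 26 carried CCAATCAG on the gene's strand, and the nearest CCAAT before the start lay 23 to 70 bases upstream (median 55.5). CCAATCAG was found on either strand in 25 of the 168 other members (14.9%) and in 4.16% of the 27305 promoters in the table. The shorter CCAAT, which CCAATCAG contains, was in 45.8% of the other members and 35.7% of all promoters. It was not particular to the cluster. In the group from ZNF653 to ZNF791, only the promoters of ZNF653, ZNF799 and ZNF490 lacked an upstream CCAAT on the gene's strand. In the rest the nearest one lay 32 to 121 bases before the start. The 12-base word found most often in the cluster, CTGTCACTCAGG, was in 16 of the 26 (61.5%), in 3 of the 168 other members (1.79%) and in 0.136% of all promoters. These words were picked after the promoters were read, and a match is a description of the letters, not a binding site. Among the cluster's members, the 12-base word was in 9 of the 11 called lower in NCI-H2087 and in 7 of the 15 others with a promoter. The cluster's promoters were also poor in the dinucleotide CG, with a median of 10 per 300 bases against 22 in the other members and 14 in all promoters.

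The windows below lie just before the start and are written along the gene's strand, on GRCh38.p14. The first 7 belong to the cluster members with the largest falls in NCI-H2087 among those with a promoter sequence, which leaves out ZNF738, the next 2 to cluster members that differed between lines, and the last 2 to ZNF562, the 1 member called higher in NCI-H2087, and ZNF146, the member of highest level. Capitals mark CCAAT, CCAATCAG and CTGTCACTCAGG.
ZNF257 (chr19:22052354-22052457, plus strand): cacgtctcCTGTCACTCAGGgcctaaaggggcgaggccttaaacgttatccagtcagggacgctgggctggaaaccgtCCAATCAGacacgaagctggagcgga
ZNF429 (chr19:21505495-21505598, plus strand): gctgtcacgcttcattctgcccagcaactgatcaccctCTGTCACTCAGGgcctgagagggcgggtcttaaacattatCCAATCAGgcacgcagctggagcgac
ZNF682 (chr19:20039532-20039635, minus strand): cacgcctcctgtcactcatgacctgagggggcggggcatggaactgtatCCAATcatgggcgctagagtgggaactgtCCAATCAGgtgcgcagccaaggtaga
ZNF493 (chr19:21397000-21397103, plus strand): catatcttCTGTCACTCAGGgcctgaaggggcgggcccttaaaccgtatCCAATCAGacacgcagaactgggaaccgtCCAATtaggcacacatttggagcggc
ZNF737 (chr19:20565813-20565916, minus strand): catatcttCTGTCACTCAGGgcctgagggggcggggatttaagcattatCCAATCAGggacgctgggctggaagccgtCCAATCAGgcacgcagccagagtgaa
ZNF714 (chr19:21082067-21082170, plus strand): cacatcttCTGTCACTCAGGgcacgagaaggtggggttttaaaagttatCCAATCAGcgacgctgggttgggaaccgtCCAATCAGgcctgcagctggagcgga
ZNF708 (chr19:21329416-21329519, minus strand): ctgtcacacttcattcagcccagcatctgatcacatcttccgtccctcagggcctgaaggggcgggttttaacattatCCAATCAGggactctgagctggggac
ZNF730 (chr19:23116895-23116998, plus strand): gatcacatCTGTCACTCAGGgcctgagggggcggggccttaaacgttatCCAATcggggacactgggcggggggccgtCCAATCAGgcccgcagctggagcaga
ZNF724 (chr19:23250421-23250524, minus strand): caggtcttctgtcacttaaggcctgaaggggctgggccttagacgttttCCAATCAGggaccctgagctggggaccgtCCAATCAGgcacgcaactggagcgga
ZNF562 (chr19:9675117-9675220, minus strand): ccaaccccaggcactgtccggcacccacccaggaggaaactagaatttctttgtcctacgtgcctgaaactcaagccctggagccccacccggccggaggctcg
ZNF146 (chr19:36214986-36215089, plus strand): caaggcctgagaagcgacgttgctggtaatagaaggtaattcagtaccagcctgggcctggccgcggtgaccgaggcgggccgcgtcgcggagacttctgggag
Each of the 9 cluster windows holds at least 1 CCAAT in capitals, and the windows of ZNF562 and ZNF146 hold none of the 3 words.

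Levels of the members were low. Per kilobase of exon the median member stood at 1.43 CPM per kilobase, and the 5 highest were ZNF146 at 37.4, ZNF317 at 10.2, ZNF581 at 7.23, ZNF544 at 6.93 and ZNF587 at 5.89. ZNF146, whose product consists almost only of zinc fingers, ranged from 113 to 226 CPM over the 10 libraries. Summed over the 219 members, the level was 2824 and 2641 CPM in the NCI-H2087 control libraries and 2308 and 2289 CPM after p53 siRNA. In NCI-H441 it was 2564 and 2534 CPM in the controls and 2347 and 2021 CPM after p53 siRNA. NCI-H2110 lay below all of these, at 1567 CPM with control and 1683 CPM with p53 siRNA. In both lines with replicates the 2 treated libraries were thus below the 2 controls, while in NCI-H2110 the treated library was the higher one.

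After p53 siRNA in NCI-H2087, 20 members fell and 1 rose (edgeR quasi-likelihood test, adjusted p below 0.05). The 20 make up 9.13% of the members, where 3.69% of all 17978 genes tested were lower, and the 1 makes up 0.457%, where 4.98% of all genes were higher. The median log2 change of the members was -0.35, against -0.03 over all genes, and 174 of the 219 (79.5%) had a negative value, against 52.7% of all genes. Both treated libraries were below both controls for 125 members (57.1%), against 30.4% of all genes. ZNF genes of other chromosomes had a median of -0.28 with 17 lower and 3 higher of 197, and other protein-coding genes of chromosome 19 had a median of 0.05 with 18 lower and 30 higher of 671. The last median was below 0 with library totals in place of TMM (-0.12) and after a correction for GC content (-0.03). Whether the members differ from these lists was not tested.

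**Figure D1:**
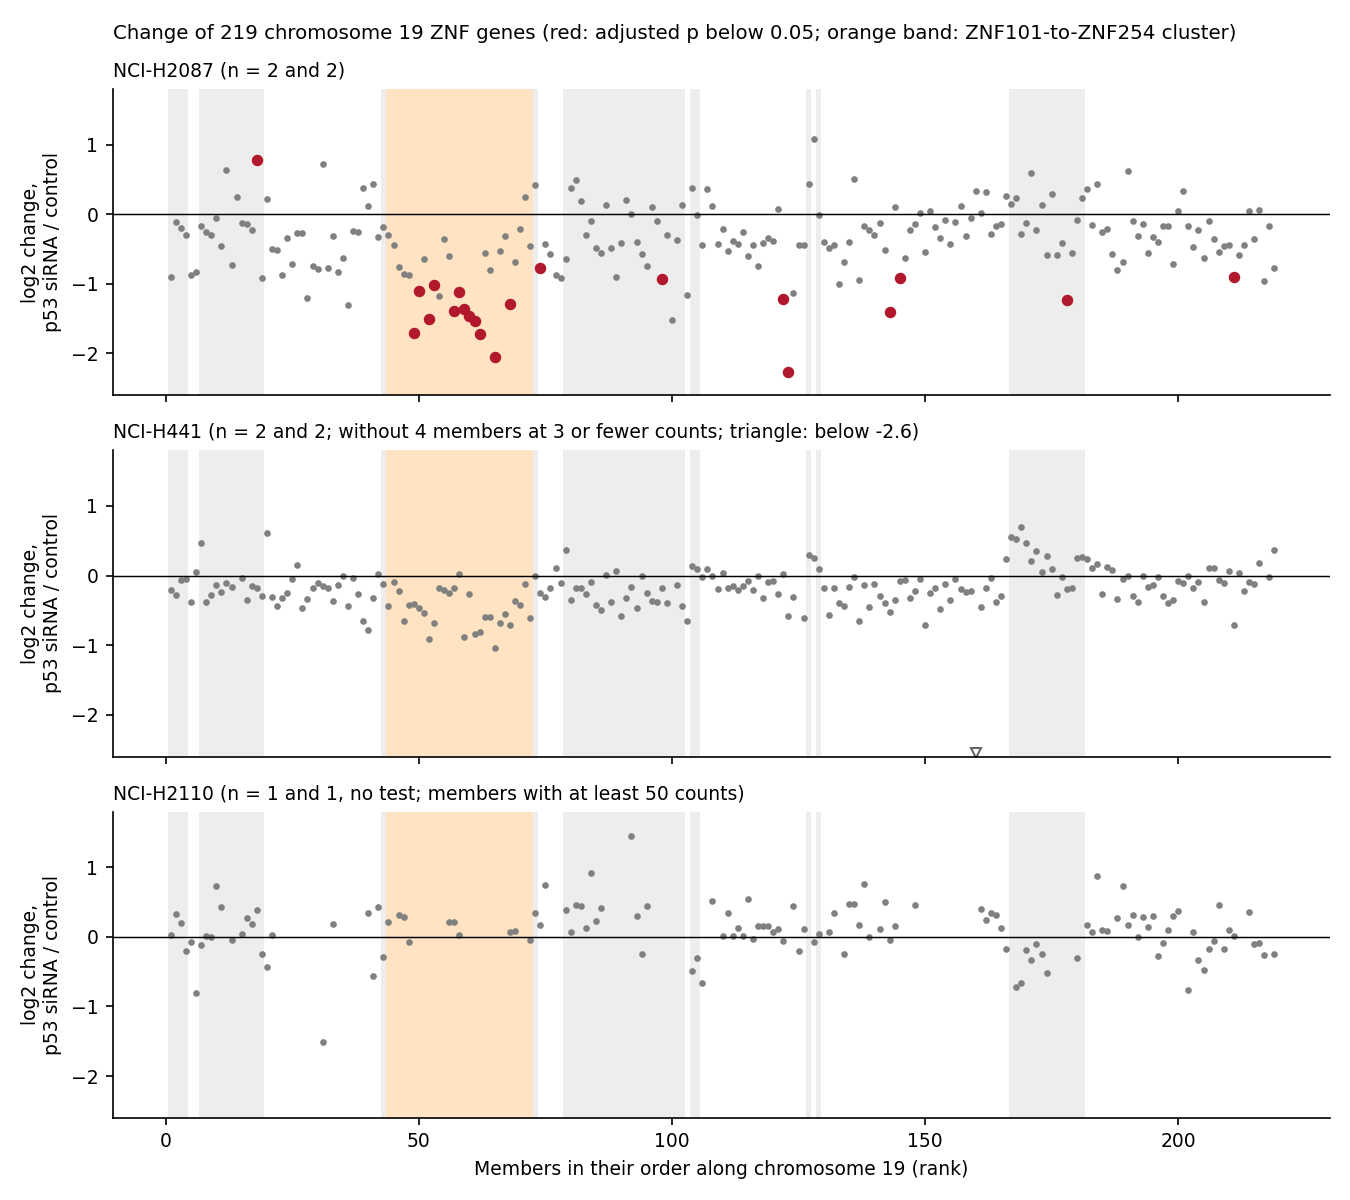
Log2 change after p53 siRNA (vertical axis, one panel per line) of each member against its rank along chromosome 19, with grey and white bands marking neighbour groups. In NCI-H2087 the called members (red) gather in the orange ZNF101-to-ZNF254 band, 12 of 21, and in NCI-H441 28 of that band's 29 members lie below 0 without a call.

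**Figure D2:**
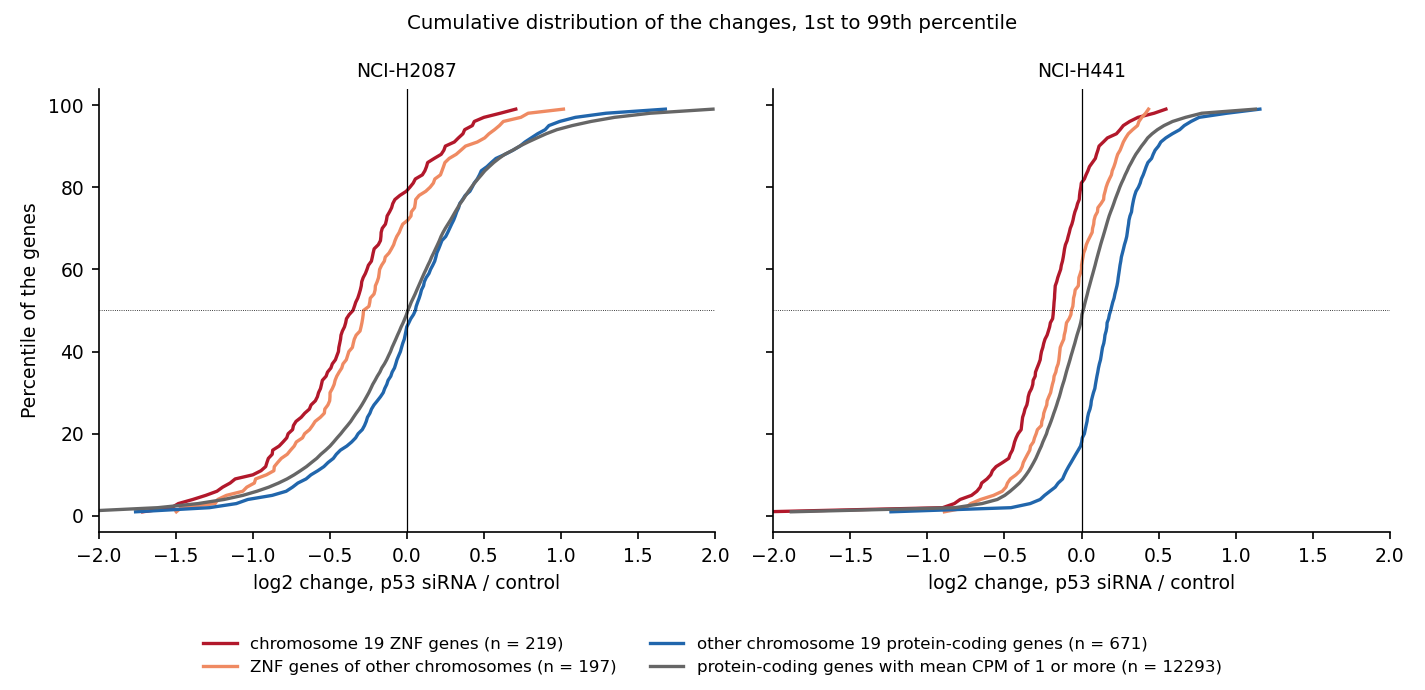
Cumulative distributions of the log2 change after p53 siRNA in NCI-H2087 (left) and NCI-H441 (right) for the members and 3 comparison lists, from the 1st to the 99th percentile. The member curve lies to the left of the protein-coding genes over most of its length, with medians of -0.35 in NCI-H2087 and -0.18 in NCI-H441.

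Of the 20 falls in NCI-H2087, 12 lay in the ZNF101-to-ZNF254 cluster, whose 29 members had a median log2 change of -0.86, with 28 of 29 negative. The 190 members outside it had a median of -0.30 with 8 lower and 1 higher. Among the 9 larger groups, the one from ZNF302 to ZNF792 came nearest, with a median of -0.78, 5 of 5 negative and 1 lower. The remaining larger groups had medians of -0.43 to -0.13. ZNF257, a KRAB protein with 12 fingers, stood at 5.002 and 3.51 CPM in the controls and at 1.33 and 0.718 CPM after p53 siRNA, a log2 change of -2.05 ± 0.39 (SE, here and below, edgeR adjusted p = 0.0132). ZNF429 went from 7.74 and 6.97 CPM to 2.18 and 2.28 CPM, a change of -1.72 ± 0.26 (edgeR adjusted p = 0.00481). ZNF493, with 19 fingers, went from 14.95 and 16.9 CPM to 5.13 and 5.87 CPM, a change of -1.53 ± 0.25 (edgeR adjusted p = 0.00640). In all 3 genes the treated libraries were well below the controls, without overlap.

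The more abundant cluster members moved the same way. ZNF91 stood at 30.6 and 28.5 CPM in the NCI-H2087 controls and at 12.3 and 11.8 CPM after p53 siRNA (log2 -1.29 ± 0.27, edgeR adjusted p = 0.0179). ZNF738 went from 46.4 and 26.1 CPM to 18.04 and 8.28 CPM (log2 -1.46 ± 0.39, edgeR adjusted p = 0.0483), and its replicates lay further apart than those of the other named genes. ZNF714, in which no KRAB core was found, went from 33.9 and 28.3 CPM to 13.8 and 10.01 CPM (log2 -1.39 ± 0.28, edgeR adjusted p = 0.0172). ZNF682, ZNF737 and ZNF708 changed by -1.70, -1.51 and -1.36 on the log2 scale. ZNF431, ZNF90 and ZNF626 completed the 12, with changes of -1.12, -1.11 and -1.01. ZNF93, the repressor of L1 elements next to ZNF682, changed by -0.87 ± 0.37 and did not pass the test (edgeR adjusted p = 0.179). With the replicate number as a block, described below, it was called lower (log2 -0.88, edgeR adjusted p = 0.0015), as were 12.6% of all genes. Summed over the 29 members, the cluster stood at 482 and 412 CPM in the controls and 273 and 206 CPM after p53 siRNA.

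**Figure D3:**
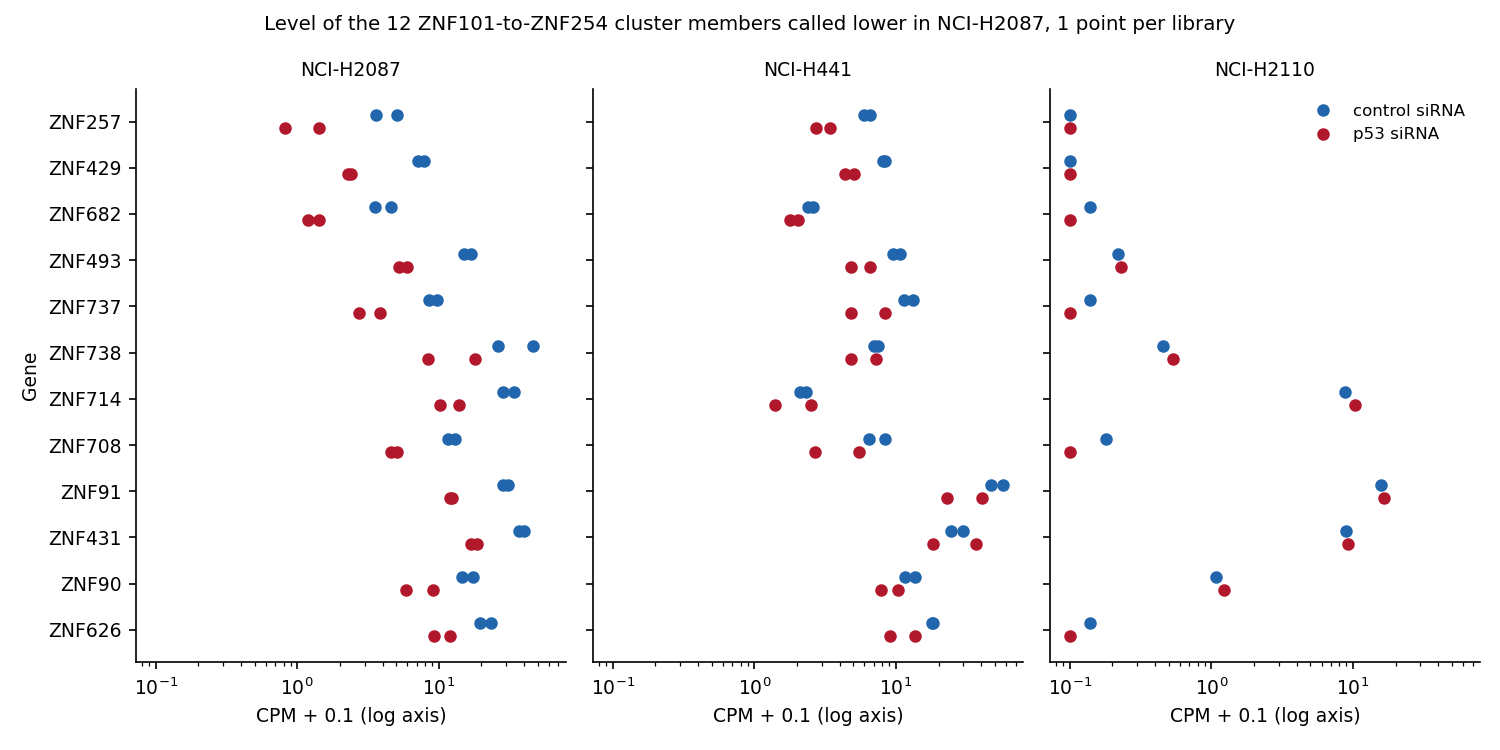
Level (CPM plus 0.1, log axis) of the 12 cluster members called lower in NCI-H2087, one row per gene and one point per library, in blue for control and red for p53 siRNA. In NCI-H2087 each red pair lies left of its blue pair, and in NCI-H2110 ZNF257 and ZNF429 had no counts.

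The 8 falls outside the cluster lay in 6 other groups. ZNF233 had the largest fall of all members (log2 -2.27 ± 0.46, edgeR adjusted p = 0.0166) on few reads, with 47 and 67 counts in the controls and 8 and 16 after p53 siRNA. ZNF610 went from 7.68 and 7.24 CPM to 3.03 and 2.62 CPM (log2 -1.40 ± 0.24, edgeR adjusted p = 0.00893). ZNF793 went from 26.6 and 26.7 CPM to 14.02 and 13.99 CPM, and ZNF302 from 30.3 and 27.6 CPM to 16.7 and 17.1 CPM. ZNF471, ZNF235, ZNF528 and ZNF606 were the others. The 1 member that rose was ZNF562, from 33.6 and 27.7 CPM to 52.3 and 53.1 CPM (log2 0.78 ± 0.19, edgeR adjusted p = 0.0343). ZNF114 at 1.08 ± 0.30 came closest to it without passing (edgeR adjusted p = 0.0537), followed by ZNF507 at 0.42, ZNF146 at 0.38 and ZNF20 at 0.72.

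Members with a KRAB core had a median log2 change of -0.40 in NCI-H2087 and the 29 without one a median of -0.00, and the 2 sets also differed in base composition, with a median transcript GC content of 41.9% and 57.8%. Finger number showed no such order, with medians of -0.27 below 10 fingers, -0.43 for 10 to 14 and -0.31 for 15 or more.

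The labels do not say what a replicate number marks. With 2 pairs per line, same-numbered libraries of a line deviated together, and the number was also fitted as a block. With this block, 60 members were lower and 5 higher in NCI-H2087, where 12.6% and 12.8% of all genes were, and 21 of the 29 cluster members were lower. The 20 falls were among the 60, and the 4 further rises were ZNF114, ZNF580, ZNF507 and ZNF749. After a correction for transcript GC content, 26 members were lower and 2 higher, where 5.07% and 6.14% of all genes were, with a median of -0.36, and 14 of the lower ones were in the cluster. With library totals in place of TMM, 34 members were lower and 0 higher, where 7.15% and 3.55% of all genes were. Leaving out 1 library, with the lone sample taken to vary like the other groups, left 2 members called without control replicate 1, 0 without control replicate 2, 12 without p53 siRNA replicate 1 and 4 without p53 siRNA replicate 2. ZNF562 passed in none of these 4 fits (edgeR adjusted p = 0.0840 to 0.267), nor with library totals (log2 0.61, edgeR adjusted p = 0.0687).

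In NCI-H441, 0 members were higher and 0 lower after p53 siRNA by edgeR, where 0% and 0.00556% of all genes were, and DESeq2 and limma-voom called 0 as well. At an unadjusted p below 0.05 there were 15 members (6.85%), against 4.43% of all genes. The median log2 change was -0.18, against 0.01 over all genes, and 178 of the 219 (81.3%) were negative. Both treated libraries were below both controls for 71 members (32.4%), against 17% of all genes. The cluster had a median of -0.47, with 28 of 29 negative, and the members outside it -0.17. Its summed level was 448 and 393 CPM in the controls and 366 and 240.2 CPM after p53 siRNA, so that the 2 treated libraries, though both lower, were far apart.

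The members of smallest p in NCI-H441 were again mostly cluster genes. ZNF493 stood at 10.6 and 9.51 CPM in the controls and 6.48 and 4.75 CPM after p53 siRNA, a log2 value of -0.84 ± 0.24. ZNF429 stood at 7.98 and 8.25 CPM and then 5.0 and 4.30 CPM, at -0.80 ± 0.25. ZNF611, ZNF737 and ZNF257 had values of -0.71, -0.91 and -1.04. On the other side, ZNF414, ZNF653, ZNF628, ZNF524 and ZNF579 had values of 0.47 to 0.70. None of these 10 passed (edgeR adjusted p = 0.933 for each).

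Change in NCI-H441 moved with the base composition of the transcript over the genes at large. The 5 bins of GC content held the tested genes with a GC value and a mean of 1 CPM or more. For NCI-H2110 only those with at least 50 counts in either library were used. From the lowest to the highest bin, the median log2 change ran from -0.18 to 0.22 in NCI-H441 and from 0.21 to -0.23 in NCI-H2110. It stayed between -0.05 and 0.07 in NCI-H2087. The members had a median GC content of 42.2%, against 47.7% in all binned genes, and the 5 genes just named with values above 0 had 62.6% to 70.4%. With the GC correction, the NCI-H441 median of the members was -0.09 and that of the cluster -0.37. Of the 20 members called lower in NCI-H2087, 18 were negative in NCI-H441 with a median of -0.50, and 14 had both treated libraries below both controls there. In that line 81.3% of all members and 46.2% of all genes were negative. Both treated libraries were below both controls for 32.4% of all members and 17% of all genes. The changes of the 219 members in the 2 lines had a Pearson's r of 0.257 and a Spearman's rho of 0.354. Over all genes with a mean of 1 CPM or more they were 0.137 and 0.214. With the GC correction they were 0.207 and 0.314 for the members and 0.129 and 0.232 for those genes. For the 132 members with at least 50 counts in either NCI-H2110 library, r against that line was -0.028 in NCI-H2087 and -0.188 in NCI-H441. Over all such genes it was 0.167 and -0.015. These values are a description over genes that share libraries.

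The change common to the 3 lines, tested in a model of line and siRNA, was called for 1 member. ZNF493 fell (log2 -1.14 ± 0.21, edgeR adjusted p = 0.0434), where 0.0556% of all genes were lower and 0.339% higher. ZNF429 at -1.24 ± 0.24, ZNF737 at -1.21 ± 0.24, ZNF257 at -1.50 ± 0.31 and ZNF626 at -0.86 ± 0.19 came next (edgeR adjusted p = 0.0548 to 0.0879). All 5 are cluster genes with 3 or fewer counts in each NCI-H2110 library, so their values rest on the other lines. With the replicate block 2 members were lower, ZNF493 and ZNF737, where 0.0667% of all genes were lower and 0.328% higher. Without NCI-H441 p53 siRNA replicate 1, 5 members were called, and without any 1 of the 4 NCI-H2087 libraries, either NCI-H441 control or NCI-H441 p53 siRNA replicate 2, 0 were.

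No member differed in its change between NCI-H2087 and NCI-H441 by edgeR, where 0.239% of all genes had the higher and 0.172% the lower change in NCI-H2087. DESeq2 and limma-voom also called 0, and 15 members (6.85%) had an unadjusted p below 0.05, against 13.2% of all genes. The median of the differences was -0.19 (log2, NCI-H2087 minus NCI-H441). The smallest p values belonged to ZNF562 at 0.96 ± 0.27 (edgeR adjusted p = 0.180) and, in the other direction, to ZNF235 at -1.24 ± 0.42 (edgeR adjusted p = 0.257). With the replicate block, 2 members had the higher change in NCI-H2087, ZNF562 and ZNF146, and 4 the lower, ZNF738, ZNF431, ZNF714 and ZNF528, where 4.66% and 4.26% of all genes did. ZNF431 shows the kind of value involved, with 40.1 and 36.5 CPM going to 18.5 and 16.6 CPM in NCI-H2087 and 29.5 and 24.6 CPM going to 36.6 and 18.2 CPM in NCI-H441.

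In NCI-H2110, with 1 library per siRNA and no test, 132 members had at least 50 counts in either library. Past 2-fold, 1 was higher and 1 lower, where 0.904% and 0.589% of all genes of that depth were. ZNF420, known as a KRAB protein that binds p53, had 46 counts with control and 117 with p53 siRNA, a log2 ratio of 1.44. ZNF20 had 54 and 16 counts, a log2 ratio of -1.51. ZNF420 reached 50 counts only with p53 siRNA and ZNF20 only with control siRNA. Each thus entered through the library where it was higher, and each ratio rests on a single pair of libraries. The next ratios were 0.91 for ZNF382, 0.87 for ZNF460, 0.76 for ZNF841 and 0.75 for ZNF181, and on the lower side -0.80 for ZNF358, -0.76 for ZNF671, -0.72 for ZNF579 and -0.66 for ZNF524. The median of the 132 was 0.10 with 33.3% negative, while other protein-coding genes of chromosome 19 had a median of -0.26. By GC content, the members' medians ran from 0.22 in the lowest of the 5 bins to -0.33 in the highest. Those of all binned genes, given above, ran the same way. The cluster stood at 68.6 CPM with control and 75.4 CPM with p53 siRNA.

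NCI-H2110 differed from the other lines in how many members it lacked. At most 3 counts in each library were found for 48 of the 219 members (21.9%) in NCI-H2110, for 4 (1.83%) in NCI-H441 and for 0 in NCI-H2087. Among the 12293 protein-coding genes chosen by the same mean level, the shares were 4.08%, 2.97% and 1.11%. A member at this level in 1 line had to be higher in another to pass the rule, which holds for the comparison genes too, and the difference was not tested. Among the 48, 22 had no count in either library. Relative to library totals, 3 counts correspond to 0.117 and 0.129 CPM in the control and treated library. ZNF genes of other chromosomes were at this level in NCI-H2110 in 17 of 197 cases (8.63%) and other chromosome 19 genes in 9 of 671 (1.34%). In the 8 libraries of the other lines the 48 members summed to 340 to 520 CPM per library, and in NCI-H2110 to 1.53 and 0.860 CPM.

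**Figure D4:**
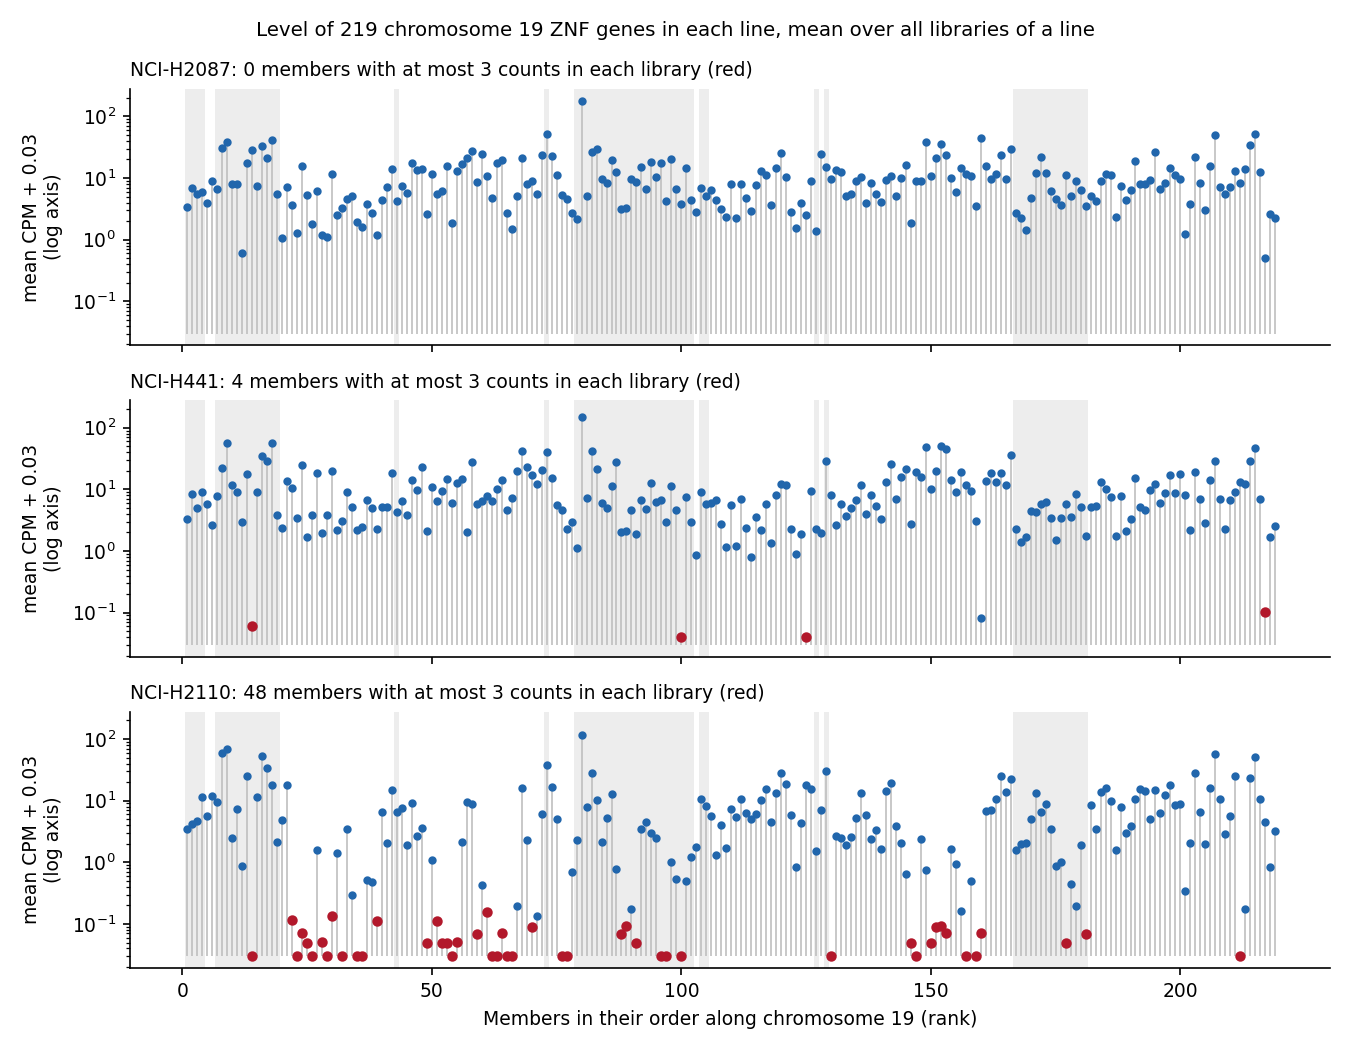
Mean level of each member over all libraries of a line (CPM plus 0.03, log axis) against its rank along chromosome 19, with bands for neighbour groups and red points for members with at most 3 counts in each library. Of the 48 red points of NCI-H2110, 23 lie in runs of 3 or more neighbours and 13 stand alone, while NCI-H441 has 4 red points and NCI-H2087 has none.

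The members that NCI-H2110 lacked were unevenly spread over the groups. They made up 14 of 29 in the ZNF101-to-ZNF254 cluster, 12 of 23 in the group from ZNF653 to ZNF791, 10 of 37 from ZNF175 to ZNF331 and 6 of 24 from ZNF565 to ZNF573, but 0 of 21 from ZNF575 to ZNF180 and 1 of 38 from ZNF264 to ZNF446. In order along the chromosome, 23 of the 48 lay in runs of 3 or more, 12 in pairs and 13 alone. The longest run had 6 genes, ZNF493, ZNF429, ZNF100, ZNF43, ZNF257 and ZNF730. Runs of 5 went from ZNF823 to ZNF69 and from ZNF486 to ZNF85, and a run of 4 from ZNF611 to ZNF468. ZNF468 shows the size of the difference, with 23.7 to 56.6 CPM in the control libraries of the other lines and 1 count in each NCI-H2110 library. ZNF91, in the same cluster as the longest run, had 15.7 and 16.6 CPM in NCI-H2110. A KRAB core was found in 45 of the 48. Of those with a promoter sequence, 25 of 42 (59.5%) held CCAATCAG, against 26 of 152 (17.1%) of the other members, and their median CG count was 16 against 21.5. CCAATCAG was picked from the ZNF101-to-ZNF254 cluster, which supplied 14 of the 48. All 26 promoters of that cluster held it, with a median CG count of 10, so this contrast overlaps in part with cluster membership. The 25 promoters with the word outnumber those 14, so members of other groups were among them. The contrast outside the cluster alone is not given here.

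With control siRNA, 58 members were higher and 29 lower in NCI-H2087 than in NCI-H441 by edgeR, or 26.5% and 13.2%, where 22% and 20.1% of all genes were. The median log2 difference was 0.24, against 0.02 over all genes, and ZNF genes of other chromosomes had 21 higher and 46 lower of 197. Other protein-coding genes of chromosome 19 leaned the same way as the members, with 178 higher (26.5%) and 107 lower (15.9%) of 671 and a median of 0.17. The groups along the chromosome differed among themselves. From ZNF575 to ZNF180, 14 of 21 members were higher in NCI-H2087 and 0 lower, with a median of 1.11, and from ZNF628 to ZNF835 8 of 15 were higher and 0 lower. From ZNF565 to ZNF573, 13 of 24 were higher and 2 lower. From ZNF653 to ZNF791 the balance was the reverse, with 1 higher and 7 lower of 23 and a median of -0.67. The ZNF101-to-ZNF254 cluster had 4 higher and 7 lower.

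**Figure D5:**
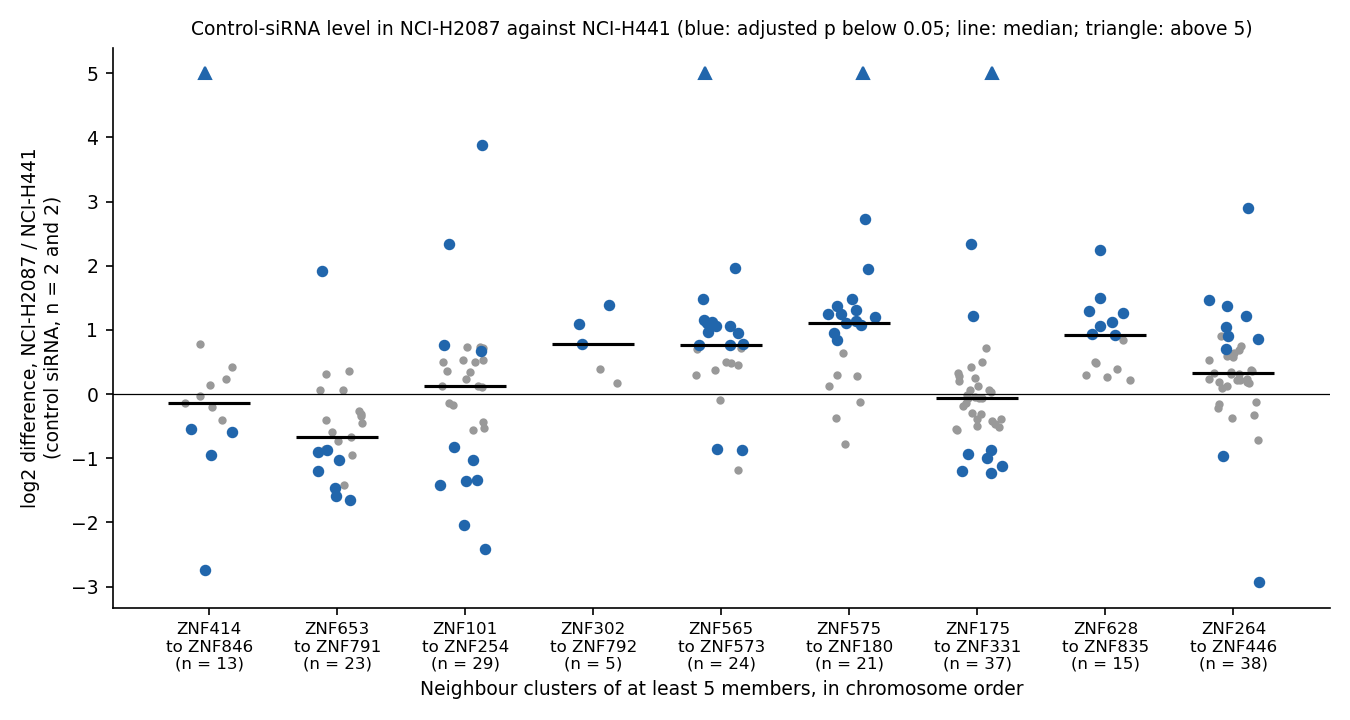
Log2 difference in level between NCI-H2087 and NCI-H441 with control siRNA for the members of the 9 larger neighbour groups, one point per gene, blue where called, with the group median as a line. Triangles mark the 4 genes above 5, which were almost uncounted in NCI-H441, and the ZNF575-to-ZNF180 group has 14 called members, all above 0.

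Some members were present in one line and nearly uncounted in the other. ZNF560 had 503 and 697 counts in the NCI-H2087 controls and 2 and 0 in those of NCI-H441. ZNF677, a gene silenced by promoter methylation in some lung cancers, had 738 and 1049 counts against 4 and 1. ZNF781 had 94 and 162 counts against 1 and 0, and ZNF285 had 49 and 82 against 1 and 0. ZNF132 had few counts in both lines, 11 and 18 against 2 and 2. ZNF560, ZNF677 and ZNF781 were also at 0 or 1 count in NCI-H2110, whereas ZNF285 had 480 and 378 counts there and ZNF132 had 125 and 94. ZNF714 was next, at 33.9 and 28.3 CPM against 2.23 and 2.00 CPM (log2 3.88 ± 0.32, edgeR adjusted p = 1.59e-05). ZNF114 (log2 3.16), ZNF284 (2.73), ZNF738 (2.34) and ZNF577 (2.33) followed on this side.

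On the NCI-H441 side, ZNF154, a gene often methylated in tumours, stood at 0.980 and 1.17 CPM in NCI-H2087 and 7.08 and 9.43 CPM in NCI-H441 (log2 -2.93 ± 0.32, edgeR adjusted p = 7.65e-05). ZNF177 had a difference of -2.74. In the ZNF101-to-ZNF254 cluster, ZNF730 stood at 2.17 and 1.24 CPM against 10.5 and 7.58 CPM, and ZNF724 at 6.76 and 4.52 CPM against 22.0 and 24.4 CPM, so that members of the cluster that holds ZNF714 lay on the opposite side. ZNF700, ZNF433, ZNF823, ZNF675, ZNF66 and ZNF726 had differences of -1.65 to -1.33. Leaving out 1 control library lowered the number called from 87 to 51 without NCI-H2087 replicate 1, 43 without NCI-H2087 replicate 2, 42 without NCI-H441 replicate 1 and 59 without NCI-H441 replicate 2.

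The proteins that KRAB ZNF proteins recruit were examined as a list of 27 genes, of which 26 were found. TRIM28, the common partner, stood at 106 and 99.6 CPM in the NCI-H2087 controls and 115 and 100.5 CPM after p53 siRNA (log2 0.07 ± 0.18), and at 72.7 and 71.3 CPM and then 77.2 and 106 CPM in NCI-H441 (log2 0.35 ± 0.18). It passed in neither line (edgeR adjusted p = 0.855 and 0.933). In NCI-H2087, 2 of the 26 rose (7.69%, where 4.98% of all genes were higher) and 0 fell. With library totals in place of TMM the direction of the calls was the reverse, with 0 higher and 2 lower. Among them, SUV39H2, a histone H3 lysine methyltransferase, went from 13.0 and 10.4 CPM to 28.5 and 19.6 CPM (log2 1.04 ± 0.25, edgeR adjusted p = 0.0354), and did not pass with library totals (log2 0.86, edgeR adjusted p = 0.0563). The 2 lower genes with library totals were MPHOSPH8 and SETDB1 (edgeR adjusted p = 0.0220 and 0.0386). With the replicate block 4 genes were lower, 15.4% of the list where 12.6% of all genes were. Among these were MPHOSPH8 (edgeR adjusted p = 0.00887 with the block and 0.0534 without) and SETDB1 (log2 -0.56, edgeR adjusted p = 0.0116 with the block and 0.0889 without). With any 1 of the 4 libraries left out, at most 1 of the 26 was called. In NCI-H441, 0 of the 26 were called.

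Between the lines with control siRNA, 9 of the 26 were higher in NCI-H2087 (34.6%) and 4 lower (15.4%), where 22% and 20.1% of all genes were. PPHLN1, a subunit of the HUSH silencing complex, differed most (log2 2.17 ± 0.21, edgeR adjusted p = 3.79e-05), with 116 and 120 CPM against 28.8 and 23.8 CPM. EHMT2, CHD3 and CHD4 differed by 1.30, 0.94 and -0.87. MPHOSPH8, another HUSH subunit, was singled out after its values were seen. It had 4 and 6 counts in NCI-H2110 and 401 to 765 counts in the 8 libraries of the other lines, and it was the only gene of the 26 with 10 or fewer counts in each library of a line. The other HUSH subunit of the list, TASOR, had 2846 and 3317 counts in NCI-H2110.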

How the data were processed

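Messenger RNA was sequenced in 10 libraries, and the deposited table gives whole-number counts per gene without normalization. The submitters' processing notes name Bowtie2, RSEM 1.2.12 and hg19. How reads shared by similar genes were divided, and whether the counts are rounded RSEM estimates, is not given in the sources used here. The members and lists were chosen with earlier results of these data known. The levels of the targeted gene and of some genes of the lists are not reported here.

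In R 4.3.3, filterByExpr on the 6 groups kept 17978 genes with 99.96% of the counts. edgeR 4.0.16 fitted a quasi-likelihood model with TMM library sizes and 1 mean per group to all 10 libraries (line plus siRNA for the common change). Tests were two-sided, with Benjamini-Hochberg adjustment over all genes and calls at adjusted p below 0.05. Standard errors were derived from the F statistic. Genes varied with a common biological coefficient of 19.8%. NCI-H2110 was compared by log2 ratios with a prior count of 2, without a test. Total counts limit precision: 3 counts correspond to 0.116 to 0.164 CPM per library, relative to library totals without TMM. The fits were tested on simulated data.

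The replicate numbers come from the titles. Over 9332 genes, replicates 1 and 2 differed alike with either siRNA (r = 0.534 for NCI-H2087 and 0.595 for NCI-H441 between the differences), so the numbers were taken as a pairing within a line, though with 2 pairs per line and no label saying what a number marks.

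Per comparison, up to 10 called members per direction with the largest changes and no overlap of libraries were named, or the 5 of smallest p where fewer than 5 passed. The 5 largest NCI-H2110 ratios per direction, the 5 members of highest level per kilobase, the members at the threshold and up to 4 called corepressor genes were also named. The 10 smaller falls of NCI-H2087, ZNF93, ZNF468, MPHOSPH8, SETDB1, the genes called with the block and those at few counts in a line were named beyond this rule, after their values were seen.

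GENCODE 29 gave positions, gene types, transcript GC content (17376 of the genes tested) and coding sequences, in which KRAB cores and fingers were counted. Promoters came from RefSeq (GRCh38.p14) and matched 194 members by symbol. Alternatives were DESeq2 1.42.0, limma-voom 3.58.1, RLE factors, library totals, no filter, other membership thresholds, fewer libraries and the replicate block. The GC correction (loess, span 0.3), the crossed block, the other count limits and the promoter words were chosen after seeing the data.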

Additional observations from a re-analysis of the deposited data

How the results depend on the processing

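For the members called in NCI-H2087 (21 in all), library totals gave 34, the replicate block 65 and the GC correction with the block 75. The 75 were 6 higher and 69 lower of 219. Of all 17978 genes, the block called 2298 higher and 2273 lower, and the GC correction with the block 2621 and 2682. With library totals the median of all genes moved from -0.03 to -0.21 and that of the members from -0.35 to -0.53, and 638 of all genes were higher and 1285 lower, against 896 and 664. The NCI-H2087 median of other chromosome 19 protein-coding genes, 0.05, became -0.12 with library totals and -0.03 with the GC correction, and the NCI-H441 median of all genes, 0.01, became -0.02 with library totals. In the ZNF101-to-ZNF254 cluster the block gave 21 and the GC correction with the block 22. The corepressor list, with 2 higher and 0 lower by TMM, gave 0 higher and 2 lower with library totals, and in all 1 with only the 4 libraries compared, 6 with the block and 7 with the GC correction and block. For the change common to the lines, DESeq2 called 11 members (8 in the cluster), limma-voom 4 (4), library totals 2 (2), every gene with at least 1 count 14 (10), the block 2 (2) and the GC correction with the block 0 (0). All these members were lower. Over all genes, DESeq2 called 380 higher and 152 lower, limma-voom 75 and 19, and library totals 48 and 14. The block called 59 and 12, its GC-corrected form 88 and 16, and every gene with at least 1 count 763 and 360 of 29328. For the difference between lines, every gene with at least 1 count gave 1 (1 in the cluster), the block 6 (3) and the GC correction with the block 15 (7), and the corepressor list gave 3 with the block and 3 with the GC correction and block. Over all genes, these settings called 446 higher and 364 lower of 29328, 838 and 766 of 17978, and 953 and 865 of 17978. At a mean of 5 CPM or more, with fewer members, 57 differed between the lines with control siRNA and 1 passed 2-fold in NCI-H2110. The cause was not tested for the settings that keep the same genes and libraries.

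Leaving out 1 library, the count ran from 0 to 12 for members in NCI-H2087 (0 to 9 in the cluster, 0 to 1 in the corepressor list), from 0 to 5 for the common change (0 to 5 in the cluster), and from 42 to 59 between the control arms (4 to 6 in the cluster, 5 to 7 in the corepressor list). It stayed at 0 in NCI-H441 and for the difference between lines. Across the control arms, same-numbered libraries of the 2 lines correlated at -0.113, and crossing the numbers in the block gave 59 higher and 29 lower, against 66 and 36 uncrossed. At limits of 5 and 10 counts, 53 and 58 members were at or below the limit in both NCI-H2110 libraries. Of 940 recomputed values of named members and member medians, none changed sign, 846 kept their direction and side of the threshold, 56 lost and 34 gained a call, and 4 moved. The named members were picked for large changes or small p-values in the same data, and the refits share most libraries. Kept signs are therefore no independent check. Depth limits members of few counts, such as ZNF233 and those nearly uncounted in a line.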
